A study of Mus musculus with 6 samples.

Results

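The 104 genes described here encode actins, actin-related proteins and Arp2/3 subunits, tubulins, and the myosin, kinesin and dynein motors. They were chosen by gene symbol from 11138 named genes, and they were read on 240 array spots. All 104 are among the 153 protein-coding mouse genes in RefSeq whose symbols fit the same patterns. By family they are 6 actins, 6 Arp2/3 subunits, 6 other actin-related proteins, 7 alpha tubulins, 7 beta tubulins, 1 protein of the gamma tubulin complex, 11 myosin heavy chains, 9 myosin light chains, 17 unconventional myosins, 22 kinesins, 6 dynein motor subunits and 6 dynein light chains.

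Total RNA of sorted mouse endothelial cells was compared on 6 arrays of 2 channels, with RNA after tobacco smoke in channel 1 and control RNA in channel 2 on each. Cells after 1 week of smoke met control on 3 of the arrays, and replicate 1 of these carries a dye-reversal label. Cells after 6 weeks of smoke met 1-week control on 2 arrays, the second with the dyes reversed, and 6-week control on 1 array. The sources used here do not give the tissue, the mouse strain or age, the marker used for sorting, the dose of smoke, or whether separate animals lie behind the arrays. The p-values below therefore measure only the spread between arrays, which may be technical, and the small number of arrays limits the precision.

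Each value is a log2 ratio, centred on the array median, and a value of 1 is a 2-fold difference. The direction of the deposited ratio was not stated. A positive value is taken to mean likely higher after smoke, because the titles name smoke first and channel 1 holds smoke on all 6 arrays. The 2 dye-reversed arrays resembled each other more than either resembled its own comparison. Over all named genes they correlated at r = 0.272, while the 6-week array with 1-week control and its own dye reversal correlated at r = -0.03. These correlations run across genes, which are not independent replicates. Among the 2023 named genes whose spots lay within 0.5 log2 unit of each other, these values were 0.510 and 0.166. All arrays kept their deposited sign. For the leading genes and for ranks, the value with the signs of both dye-reversed arrays turned is given beside it and called the turned value. Ratios hold no level, so neither the abundance of a gene nor the endothelial identity of the cells could be checked. With RNA of a whole sort, fewer cells of a type and less RNA per cell cannot be told apart.

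Actin polymerises into filaments that carry tension and push membranes forward, and the Arp2/3 complex starts new branches on them. Tubulin dimers of alpha and beta chains build microtubules. Myosins walk on actin filaments, kinesins mostly move cargo towards the plus ends of microtubules, and cytoplasmic dynein moves it towards the minus ends. In endothelium these systems set cell shape, the barrier between cells and the alignment of cells to flow.

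The upstream sequences of a pair of members that are central to the values below are printed from RefSeq (GRCm38.p6). Each is the 250 bases before the annotated start of the gene, 5′ to 3′ on the coding strand. Dynll1, which encodes dynein light chain LC8, has its window at chr5:115300991-115301240 on the minus strand, and capitals mark its 2 matches to CCAAT. Actg1, which encodes cytoplasmic gamma-actin, has its window at chr11:120348496-120348745 on the minus strand. Capitals mark its CArG box, the sequence known to bind serum response factor.
Dynll1: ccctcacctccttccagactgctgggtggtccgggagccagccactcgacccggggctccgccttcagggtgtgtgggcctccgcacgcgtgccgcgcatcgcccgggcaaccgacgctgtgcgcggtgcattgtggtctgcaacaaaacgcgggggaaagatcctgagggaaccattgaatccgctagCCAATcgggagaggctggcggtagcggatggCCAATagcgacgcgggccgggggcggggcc
Actg1: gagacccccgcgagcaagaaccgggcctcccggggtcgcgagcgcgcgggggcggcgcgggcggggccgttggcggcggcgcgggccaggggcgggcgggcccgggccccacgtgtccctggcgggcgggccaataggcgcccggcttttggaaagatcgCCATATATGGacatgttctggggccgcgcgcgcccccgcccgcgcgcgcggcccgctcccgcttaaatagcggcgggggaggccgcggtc

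Windows of the same 250 bases were found for 87 of the 104 genes, and motifs were searched in them on both strands. CCAAT was present in 37 of the 87 windows, or 42.5%, and in 34.5% of all 27025 promoter windows of that length. GGGCGG was present in 49.4% of the members' windows and in 32.9% of all windows. On the opposite strand a CCAAT match can share bases with a GGGCGG match. A CArG box was present in 7 of the 87 windows, or 8.05%, and in 1.40% of all windows. The 7 genes are Acta1, Actc1, Actg1, Arpc4, Myh4, Myl3 and Myl7. Their 1-week mean log2 ratios were -0.31, 0.65, -0.55, 0.44, 0.01, -0.13 and 0.54 in that order, so they did not share a sign. A match is only a description of the letters.

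Dynll1 had the most negative 1-week value of the 104 genes and the third lowest 1-week mean of all 11138 named genes, on the deposited signs. Its log2 ratio was -2.51, -1.51 and -2.02 on 1-week replicates 1, 2 and 3. On the 6-week arrays it was -0.11 against 1-week control, 0.05 on the dye reversal and 0.21 against 6-week control. The 3 one-week arrays lie far below the 3 six-week arrays with no overlap, and the 6-week values scatter around 0. LC8 is a small dimeric protein that was found as a dynein subunit and also binds many partners outside the motor.

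In the likely direction and on the deposited signs, the 1-week ratios of Dynll1 correspond to 5.69-fold, 2.85-fold and 4.07-fold lower signal after smoke. The spots of the gene repeated each other: they read -2.45 and -2.57 on replicate 1, -1.43 and -1.59 on replicate 2, and -1.97 and -2.08 on replicate 3. No array had Dynll1 spots more than 0.25 apart. The 1-week mean was -2.01 ± 0.23 (SE, n = 3), a 4.04-fold difference, with an unadjusted p of 0.000217 and an adjusted p of 0.348 by limma over all 19242 tests. It had the eighth smallest 1-week p of the named genes. Each SE given here comes from the limma fit, where the 1-week and 6-week replicates share 1 spread per gene. It is not the error of the named group alone.

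Across all 19242 tests limma called no gene at either time, and 1280 tests, or 6.65%, had an unadjusted p under 0.05 at 1 week. For many genes the repeated spots disagreed, so the fit was also run on the 5625 named genes whose spots lay within 1 log2 unit of each other on all 6 arrays, 53 of them members. There limma called 102 genes at 1 week, or 1.81%. Of the 53 members, 2 were called, Dynll1 and Arpc1a. At 6 weeks 12 genes, or 0.213%, and none of the 53 members were called there. Dynll1 fell, with an adjusted p of 0.00508, and its adjusted p over the alternatives run on these genes ranged up to 0.943. Leaving out each array in turn kept it between 0.00756 and 0.0800, the last without 1-week replicate 3. The high end, 0.943, came with both dye-reversed arrays turned in sign, where the 1-week mean was -0.34, since replicate 1 then reads as a positive ratio. This turned mean was the twelfth lowest of the 104, and the turned difference between times was 0.40.

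At 6 weeks the Dynll1 mean was 0.09 ± 0.28 (SE, n = 2 replicates, the dye-swapped arrays averaged), with an adjusted p of 1 by limma. The 6-week minus 1-week difference was 2.10 ± 0.36 (SE), with an unadjusted limma p of 0.00168 and the seventh smallest p of the named genes for this contrast. Its adjusted p was 0.951 over all tests and 0.134 over the genes with agreeing spots, so the difference between times did not pass. The control also differed, since 2 of the arrays of 6-week smoke used 1-week control and 1 used 6-week control. Dynll1 was 0.21 on the array with 6-week control and -0.11 and 0.05 on those with 1-week control.

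**Figure D1:**
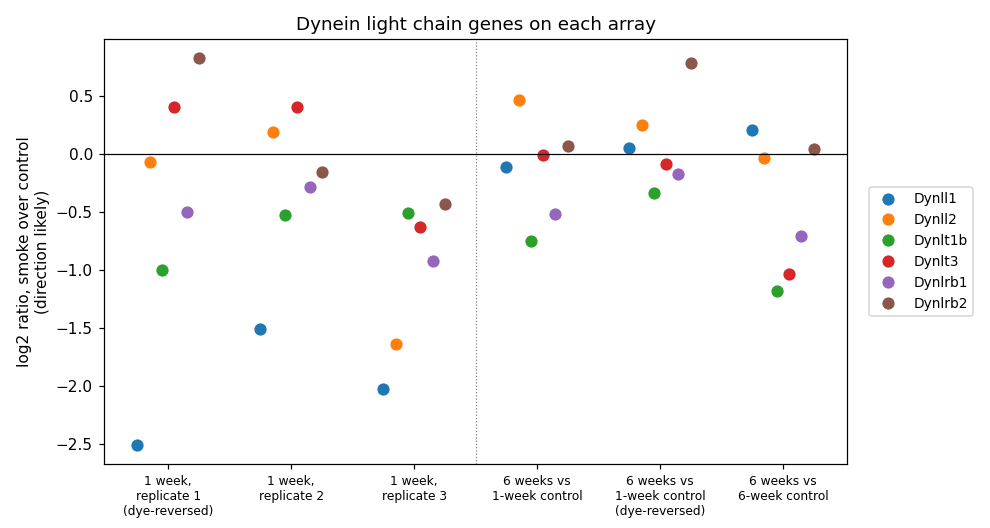
Log2 ratio of smoke over control (vertical axis, direction likely) for the 6 dynein light chain genes on each of the 6 arrays (horizontal axis), 1 point per gene and array. Dynll1 lies between -2.51 and -1.51 on the 3 one-week arrays and between -0.11 and 0.21 on the 3 six-week arrays, while Dynlt1b and Dynlrb1 are below 0 on all 6.

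The dynein light chains as a family had a median 1-week log2 ratio of -0.54 and a 6-week median of -0.22, against -0.01 for all named genes at both times. At 1 week 4 of the 6 were negative, and 3 had an unadjusted limma p under 0.05, all negative, where 3.56% of named genes were negative at that level. The turned medians were -0.29 and -0.30, with all 6 negative at 1 week and none at an unadjusted p under 0.05. The 6 genes are pairs from 3 sequence families, LC8, Tctex and roadblock, whose products bind dynein's intermediate chains.

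Dynlt1b, a Tctex-type light chain, was negative on every array. Its log2 ratio was -1.003, -0.53 and -0.51 on the 1-week arrays and -0.75, -0.33 and -1.18 on the 6-week arrays, in the order above. The 1-week mean was -0.68 ± 0.21 (SE, n = 3) and the 6-week mean -0.86 ± 0.25 (SE, n = 2), with a difference of -0.18 ± 0.33 (SE). Averaged over both times it was -0.77 ± 0.16 (SE), a 1.71-fold difference. Limma gave this mean an unadjusted p of 0.00424, an adjusted p of 0.543 over all tests and an adjusted p of 0.0372 over the genes with agreeing spots, where it fell. Over the alternatives on those genes the adjusted p ranged from 0.0328 to 0.799. It was above 0.05 without 1-week replicate 2 (0.0790) or 3 (0.113), without the first array with 1-week control (0.0715) and without the array with 6-week control (0.348). With the 6-week dye reversal turned it was 0.218. With both turned, the 1-week mean was -0.01, the 6-week mean -0.70 and their mean -0.35. The mouse genome holds several near-identical copies of this gene, so the probe cannot be assigned to one copy with certainty.

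Dynlrb1, a roadblock light chain, was likewise negative on every array, at -0.50, -0.28 and -0.93 at 1 week and -0.51, -0.17 and -0.70 at 6 weeks. Its mean over both times was -0.55 ± 0.15 (SE), with an unadjusted limma p of 0.0141 and an adjusted p of 0.662, and the turned mean was -0.34. Its spots differed by up to 2.50, and its 2 probes had 1-week means of -1.02 and -0.12. The value of this gene is thus uncertain within single arrays. The other 3 chains varied in sign. Dynll2, the close paralog of Dynll1, read -0.07, 0.19 and -1.64 at 1 week and 0.47, 0.25 and -0.04 at 6 weeks, so of the 1-week arrays only replicate 3 was clearly low, and its spots differed by up to 2.85. Dynlrb2 was positive on both dye-reversed arrays, at 0.83 and 0.79, and between -0.43 and 0.07 on the others. Dynlt3 was 0.40, 0.40 and -0.63 at 1 week and between -1.04 and -0.01 at 6 weeks.

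The 6 dynein motor subunits went both ways at 1 week, with means from -0.46 to 0.42 around a median of -0.01. Of them 2 had an unadjusted limma p under 0.05, Dync1h1 and Dync2h1, with opposite signs, where 7.49% of named genes had such a p. Dync1h1, the heavy chain that carries the motor of cytoplasmic dynein, read 0.34, 0.62 and 0.30 at 1 week and -0.32, 0.27 and -0.10 at 6 weeks. Its 1-week mean was 0.42 ± 0.16 (SE, n = 3, limma adjusted p = 0.739), the opposite sign to Dynll1, and its turned mean was 0.20. Dync2h1, the heavy chain of the dynein of cilia, read -0.34, -0.68 and -0.34 at 1 week and between -0.27 and 0.18 at 6 weeks. Its 1-week mean was -0.46 ± 0.17 (SE, n = 3, limma adjusted p = 0.739), and its turned mean was -0.23. The light intermediate chain Dync1li1 was negative on the 3 one-week arrays, between -0.40 and -0.07, with spots within 0.18 of each other. The intermediate chains Dync1i1 and Dync1i2 and the light intermediate chain Dync2li1 had no common sign on the 1-week arrays.

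Acta2 had the highest 6-week mean of the 104 genes on the deposited signs. Its turned 6-week mean was 0.44, the eighth highest, and Tuba1b then stood first at 0.69. This gene encodes the alpha-actin of smooth muscle and is used as a marker of smooth muscle and of contractile mural cells. Its log2 ratio was 0.63, 0.00 and 0.75 at 1 week and 0.49, 1.39 and 1.33 at 6 weeks. All 3 six-week arrays were positive. The 6-week mean was 1.14 ± 0.26 (SE, n = 2), a 2.20-fold difference, with an unadjusted limma p of 0.00601 and an adjusted p of 0.997. The 1-week mean was 0.46 ± 0.21 (SE, n = 3, limma adjusted p = 0.747). The mean over both times was 0.80 ± 0.17 (SE), and on this mean Acta2 rose in the fit on genes with agreeing spots, with an adjusted p of 0.0364 and a range of 0.0272 to 0.860 over the alternatives there. It was 0.542 over all tests. The call was lost without 1-week replicate 3 (0.127), the 6-week dye reversal (0.107) or the array with 6-week control (0.348), and with the 6-week dye reversal turned (0.534). With both turned, the mean over both times was 0.24.

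Markers of smooth muscle and pericytes, Acta2 included, were mixed in sign. Of 10 measured, 2 of them members (Acta2 and Myh11), 4 were positive at 1 week and 6 at 6 weeks, with medians of -0.05 and 0.08. For the mean of both times 2 of the 10, Acta2 among them, had an unadjusted limma p under 0.05. Both were positive, and 7.44% of named genes had such a p. Tagln read 0.13, 0.67 and -0.21 on the 6-week arrays and Cnn1 -0.64, 0.30 and 0.08. Rgs5 read 0.98, -0.09 and 0.44, and Des was within 0.13 of 0 on all 3. The median of the list was 0.40 on the 6-week dye reversal, where Acta2 was highest, and 0.07 and 0.11 on the other 6-week arrays. Fibroblast markers, 7 measured, had medians of -0.49 at 1 week and -0.12 at 6 weeks. At 1 week 3 of them, Dcn, Pdgfra and Dpt, were negative with an unadjusted limma p under 0.05, where 3.56% of named genes were. Postn, periostin of the matrix, moved the other way and read 0.99, 1.50 and 3.25 on the 6-week arrays, with a mean of 2.25 (limma adjusted p = 0.957). Among genes with agreeing spots Dpt fell at 1 week (adjusted p = 0.0193) and for the mean of both times (0.0240), and Postn rose for that mean (0.0343). Turned, Dcn, Pdgfra and Dpt were -0.06, -0.01 and -0.53 at 1 week. The turned 1-week means of the 7 fibroblast markers ran from -0.53 to 0.43. For the mean of both times, Dpt was -0.29 turned and Postn 0.80. None of these turned values had an unadjusted limma p under 0.05. The part of smooth muscle cells or fibroblasts in the Acta2 ratio was not tested. Endothelial markers had medians of -0.16 at 1 week and -0.29 at 6 weeks over 12 genes, with 7 and 9 of them negative. On all 6 arrays 5 were negative and 1 was positive, where 3.43% and 3.24% of named genes were. Of the 12, 4 had an unadjusted limma p under 0.05 at 1 week, 3 negative and 1 positive, where 7.49% of named genes did. For the mean of both times 5 did, 4 negative and 1 positive, where 7.44% did. Of the 8 with agreeing spots, 1 was called for that mean, where 1.83% were. These counts keep the deposited signs. Turned, the means of the 12 ran from -0.36 to 0.71 at 1 week. At 6 weeks they ran from -0.17 to 0.37, and most were positive. No turned unadjusted limma p of the 12 was under 0.05 at 1 week or for the mean of both times. Cdh5 had the smallest, 0.0658 and 0.0908.

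Actg1, one of the cytoplasmic actins, had the opposite sign to Acta2 at 1 week. It read -0.84, -0.20 and -0.61 at 1 week and -0.04, -0.30 and 0.09 at 6 weeks. The 1-week mean was -0.55 ± 0.19 (SE, n = 3, limma adjusted p = 0.735), and its 3 probes had 1-week means of -0.51, -0.69 and -0.46. Its spots differed by up to 2.17, and on 1-week replicate 2 those of the first probe read -0.67 and 1.50. Turning both dye reversals brought the mean to 0.01. Actb, the other cytoplasmic actin, was 0.32, 0.44 and 0.07 at 1 week and 1.77, 1.32 and -0.08 at 6 weeks. Its positive 6-week values thus come from the pair of arrays with 1-week control, and its spots differed by up to 2.14, so the 6-week mean of 0.74 ± 0.40 (SE, limma adjusted p = 1) is loose. Actg2, a smooth muscle actin, likewise read 0.72 and 0.53 with 1-week control and -1.43 with 6-week control.

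The muscle actins Acta1 and Actc1 were irregular. Acta1 spanned -1.47 to 0.49 at 1 week and -1.77 to 0.47 at 6 weeks. Actc1 was 2.44 and 0.89 on the dye-reversed arrays and between -0.33 and -0.03 on the other 4. Actin genes share nearly all of their coding sequence, so probes in coding sequence can read several of them, and the positions of the probes are not given in the sources used here. The order within the family is therefore uncertain.

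**Figure D2:**
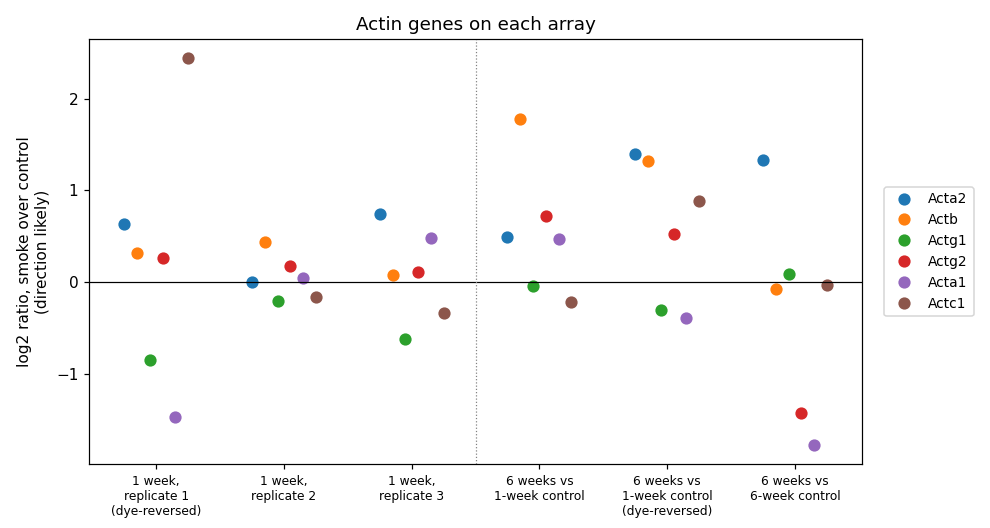
Log2 ratio of smoke over control (vertical axis, direction likely) for the 6 actin genes on each of the 6 arrays (horizontal axis), 1 point per gene and array. Acta2 is at or above 0 on every array, Actg1 is below 0 on the 3 one-week arrays, and Actc1 reaches 2.44 on the first dye-reversed array.

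Of the 6 measured Arp2/3 subunits, 5 were positive at 1 week, with a median of 0.38, and 3 at 6 weeks, with a median of 0.01. The 6-week minus 1-week difference was negative for 5 of the 6, with a median of -0.48. Over all named genes the corresponding medians were -0.01, -0.01 and 0.00. The turned medians were 0.18 at 1 week, 0.11 at 6 weeks and -0.07 for the difference. At 1 week 1 of the 6, Arpc1a, had an unadjusted limma p under 0.05, and for the difference 1 did, Arpc1b, where 7.49% and 3.38% of named genes did. None of the 6 passed over all tests.

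Arpc1a, a WD-repeat subunit of the complex, had the highest 1-week mean of the 104 genes on the deposited signs. Its turned mean was 0.51, the eighth highest, and Myh13 then stood first at 1.04. It read 0.57, 0.93 and 1.16 at 1 week and 0.19, -0.30 and 0.44 at 6 weeks. Its 1-week mean was 0.89 ± 0.20 (SE, n = 3), a 1.85-fold difference, with an unadjusted limma p of 0.00529 and an adjusted p of 0.548. Among genes with agreeing spots Arpc1a rose, with an adjusted p of 0.0454 that ranged to 0.880 over the alternatives. With 1 array left out at a time it stayed under 0.05 only without 1-week replicate 1 (0.0494) and was otherwise between 0.0515 and 0.279, the last without 1-week replicate 3. The 6-week mean was 0.19 ± 0.24 (SE, n = 2), and the difference between times, -0.69, had an unadjusted p of 0.0724.

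Arpc4 read 0.36, 0.07 and 0.87 at 1 week, and Arpc5 read 0.41, 0.40 and 0.53. Arpc5 was then -0.77 and -0.61 against 1-week control and 0.34 against 6-week control. Both were positive on each 1-week array. Arpc1b, the paralog of Arpc1a, was -0.03, 0.23 and 0.75 at 1 week and -0.19, -1.04 and -0.44 at 6 weeks. Its difference between times was -0.85 ± 0.32 (SE), with an unadjusted limma p of 0.0422 and an adjusted p of 0.951, and the turned difference was -0.34. Actr3, the Arp3 subunit of the complex, stayed between -0.29 and 0.43 on all arrays. Arpc5l, whose spots differed by up to 2.97, was positive on both dye-reversed arrays and negative on the other 4.

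The 6 other actin-related genes gave no direction. Actr1a, the Arp1 of dynactin, was negative on every 6-week array, at -0.10, -1.83 and -0.37, with a mean of -0.67 ± 0.29 (SE, n = 2, limma adjusted p = 1), or 0.25 turned. Its -1.83 came from the 6-week dye reversal, and its spots differed by up to 2.12. Actr6, a subunit of a chromatin remodelling complex, reached 1.50 on 1-week replicate 2 and was between -0.19 and 0.44 on the others.

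**Figure D3:**
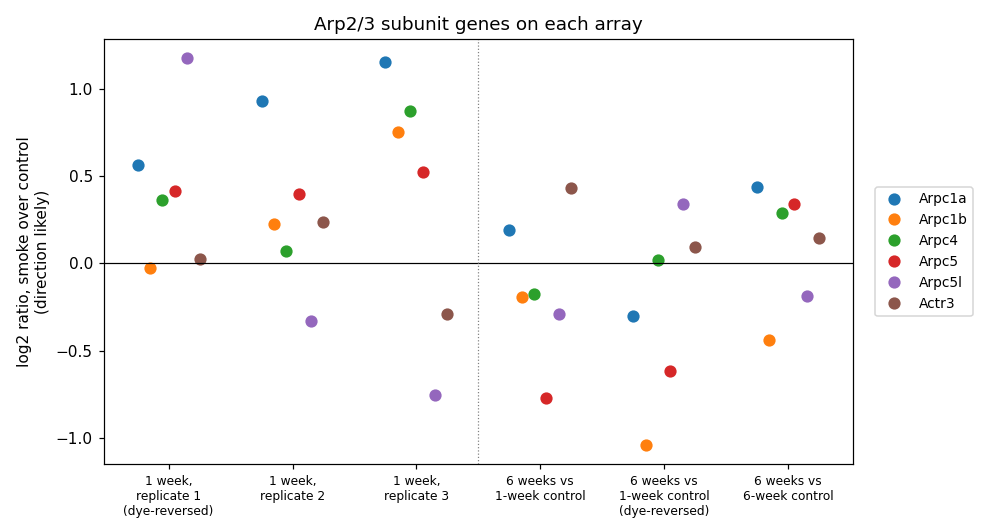
Log2 ratio of smoke over control (vertical axis, direction likely) for the 6 Arp2/3 subunit genes on each of the 6 arrays (horizontal axis), 1 point per gene and array. Arpc1a, Arpc4 and Arpc5 are above 0 on all 3 one-week arrays, and Arpc1b is below 0 on all 3 six-week arrays.

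Tubulin genes were spread around 0. Alpha tubulins had a 1-week median of 0.13 and a 6-week median of -0.05, and beta tubulins -0.10 and -0.01. At 1 week 6 of the 7 beta tubulins were negative, against 54 of all 104 members. Tubb2a, Tubb2b and Tubb4b had spots within 0.30 of each other and stayed between -0.41 and 0.15 on every array. Tubulin genes are near-identical in sequence, so which of them a probe reads is uncertain.

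Tubb6, a beta tubulin of many tissues, had the lowest 1-week mean of the tubulins on the deposited signs, at -0.96, -0.30 and -1.16. Turned, it averaged -0.17 and Tubb3 was lowest, at -0.60. At 6 weeks it was 0.09 and -0.03 against 1-week control and -1.36 against 6-week control. Its mean over both times was -0.74 ± 0.26 (SE, limma adjusted p = 0.743), or -0.41 turned. The 6-week part therefore rested on 1 array. Tubb4a, a beta tubulin of brain, was the 1 member negative on the 3 one-week arrays, at -0.72, -0.13 and -0.22, and positive on the 3 six-week arrays, at 0.14, 0.95 and 0.96. Of all named genes, 1.19% had this pattern, and 2.66% had opposite signs at the 2 times in either order. Its difference between times was 1.11 ± 0.31 (SE, limma adjusted p = 0.951), or 0.16 turned, but its spots differed by up to 3.09, and its 2 probes had 6-week means of 0.11 and 1.40. Tuba1b, a widely made alpha tubulin, read 0.00, 0.26 and 0.44 at 1 week and 0.94, -0.68 and 0.57 at 6 weeks.

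Tuba1a, Tuba1c, Tuba3a, Tuba3b, Tuba4a and Tuba8 had 1-week means of -0.07, 0.26, -0.09, 0.43, 0.11 and 0.13. Tuba1a was negative on the 3 six-week arrays, at -0.39, -0.79 and -0.14. Tuba1c ran from -0.81 on replicate 1 to 1.22 on replicate 3 although its spots lay within 0.49 of each other, so here the spread lies between arrays and not between spots.

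Of 9 myosin light chains 7 were negative at 1 week, with a median of -0.13. Turned, 5 were negative, with a median of -0.08. Myl6 and Myl12b, the essential and regulatory light chains of non-muscle myosin, were negative on all 6 arrays as averages of their spots. On the array with 6-week control the spots of Myl6 read 0.55 and -1.04, and those of Myl12b 0.00 and -0.08. Myl6 read -0.38, -0.55 and -0.08 at 1 week and -0.50, -0.93 and -0.24 at 6 weeks, with a mean over both of -0.41 ± 0.15 (SE, limma adjusted p = 0.754), or -0.05 turned. Myl12b read -0.21, -0.60 and -0.23 and then -0.88, -0.49 and -0.04, with a mean of -0.36 ± 0.16 (SE, limma adjusted p = 0.824), or -0.16 turned. Myl10 had 6-week values of 0.60, 0.31 and 1.06, with a mean of 0.76 ± 0.29 (SE, n = 2, limma adjusted p = 1), or 0.60 turned.

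Their partner heavy chain Myh9, the motor of non-muscle myosin II in endothelium, was negative on each 1-week array, at -0.20, -0.37 and -0.23. Its 6-week values were 0.31, 0.03 and -0.17, and its 1-week mean of -0.27 ± 0.16 (SE, limma adjusted p = 0.747) did not pass. Smooth muscle Myh11 read 0.25, -0.32 and -0.21 at 1 week and -0.21, 0.52 and 0.80 at 6 weeks, so it was positive on the same 2 six-week arrays where Acta2 was highest. The muscle heavy chains Myh1, Myh2, Myh3, Myh4, Myh6, Myh7 and Myh8 gave 1-week means between -0.25 and 0.34. Markers of striated muscle, 15 measured and 5 of them members, had medians of -0.14 at 1 week and 0.06 at 6 weeks. Myh13 and Myh14 reached 2.06 and 2.40 on 1-week replicate 2 and were between -0.78 and 0.99 elsewhere, with spots that differed by up to 2.80 and 1.99.

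The 17 unconventional myosins had no member with an unadjusted p under 0.05 at either time. Their 1-week means ran from -0.37 to 0.37 and their 6-week means from -0.40 to 0.37. Myo7b, with spots within 0.26 of each other, was 0.21, 0.32 and 0.45 at 1 week and 0.16, -0.30 and 0.82 at 6 weeks. Myo6, the myosin that moves towards the minus end of actin, was 0.97 and 0.94 on the dye-reversed arrays and between -0.80 and 0.01 on the others. This sign by dye, positive on both dye-reversed arrays and negative elsewhere or the reverse, held on all 6 arrays for 5 members, Actc1, Arpc5l, Myl4, Kif11 and Tubgcp4, and for 6.36% of named genes. The part of the dye in their values was not tested.

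The class V cargo myosins Myo5a, Myo5b and Myo5c had 1-week means of -0.15, -0.18 and 0.32. Myo5a was negative on each 1-week array, from -0.18 to -0.12, and Myo5c positive, from 0.01 to 0.60. The class I myosins Myo1a, Myo1c, Myo1f and Myo1h, which link membrane to actin, had 0.09, -0.29, -0.32 and 0.06. Myo18a was negative on each 1-week array, at -0.38, -0.42 and -0.13, and Myo10, a motor of filopodia, was negative on each 6-week array, at -0.06, -0.53 and -0.23. None of these genes had the same sign on all 6 arrays.

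None of the 22 kinesins had an unadjusted p under 0.05 at 1 week or at 6 weeks, and their medians were 0.00 and 0.01. The 1-week means ran from -0.62 to 0.46 and the 6-week means from -0.60 to 0.79. Kif22, a chromosome-arm motor of mitosis, was negative on all 6 arrays, from -0.74 to -0.02. Kif23, which bundles microtubules in late division, was 0.04, -1.34 and -0.16 at 1 week and 1.47, 0.44 and 0.62 at 6 weeks. Its difference between times, 1.27 ± 0.48 (SE), had an unadjusted limma p of 0.0421 and an adjusted p of 0.951, with spots up to 3.94 apart and a turned difference of 1.08. Of 5 markers of proliferating cells, all were negative at 1 week, with a median of -0.22, and 2 were positive at 6 weeks, with a median of -0.01. Kif12 was negative on the 3 six-week arrays, at -0.28, -0.43 and -0.85 (mean -0.60 ± 0.24, SE, limma adjusted p = 1), and Kif5b, a motor that carries cargo in most cells, read -0.93, -0.12 and 0.56 at 1 week.

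The other kinesins are given by role. The cargo motors of the kinesin-1 family, Kif5a, Kif5b and Kif5c, had 1-week means of 0.00, -0.16 and 0.22. The kinesin-2 motors Kif3a, Kif3b and Kif3c, which serve cilia and transport, had 0.25, 0.13 and 0.28, and Kif17 had -0.62, set by a ratio of -1.99 on replicate 3. The vesicle motors Kif1a and Kif1b had -0.13 and 0.27. Both Kif1b and Kif3c were negative on the 3 six-week arrays, with 6-week means of -0.37 and -0.20. Kif21a read -0.02, 0.42 and 0.97 at 1 week and 0.20, -0.08 and -0.70 at 6 weeks, with spots within 0.35 of each other. Of the other mitotic motors, Kif11, Kif20a, Kif2c and Kif4 had 1-week means of 0.29, -0.02, 0.00 and -0.27. The mitotic motors thus had no common sign.

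**Figure D4:**
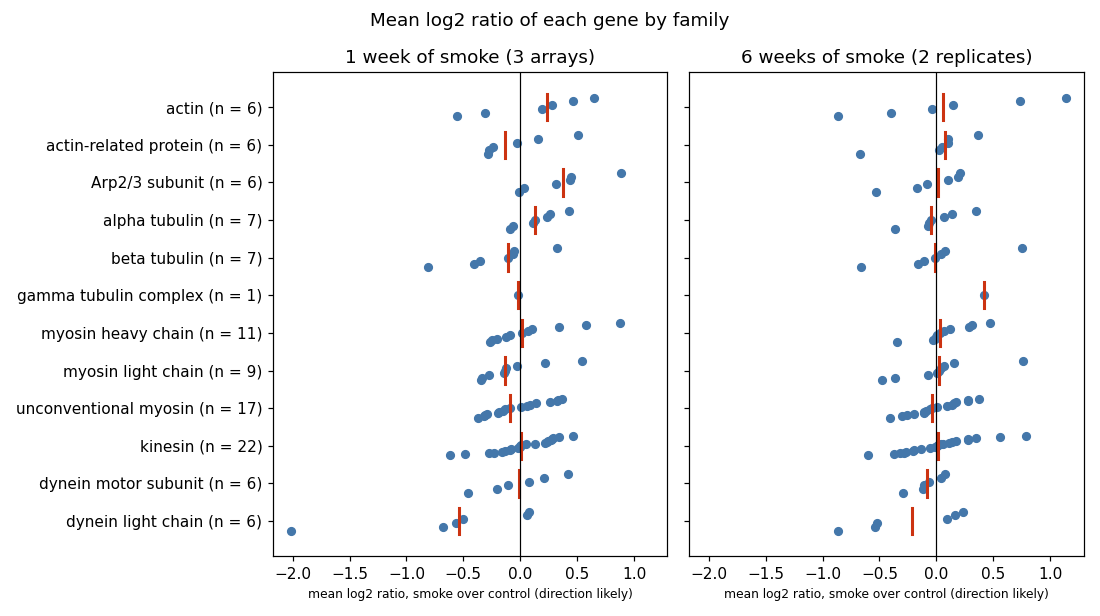
Mean log2 ratio of smoke over control (horizontal axis, direction likely) of each gene, by family (vertical axis, with n genes), at 1 week on the left and 6 weeks on the right. Red bars are family medians: at 1 week the Arp2/3 subunits stand at 0.38 and the dynein light chains at -0.54, and the kinesins at 0.00.

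As a whole, the 104 genes were centred on 0. The median 1-week log2 ratio was -0.01, with 50 positive and 54 negative, and the 6-week median was 0.01, with 57 positive and 47 negative. The median size of the 1-week ratio was 0.23, against 0.19 for all named genes, and of the 6-week ratio 0.15, against 0.17. At 1 week 7 of the 104 had an unadjusted limma p under 0.05, where 7.49% of named genes did, so the members' share was no higher. They were Arpc1a and Dync1h1, positive, and Dynll1, Dynlt1b, Actg1, Dynlrb1 and Dync2h1, negative. With both dye reversals turned 8 members had such a p at 1 week, where 3.2% of named genes did, and 0 of them were among these 7. The 8 were Kif11, Myh13 and Tuba1c, positive, and Arpc5l, Myh2, Myl4, Myo6 and Tubb3, negative. Which members stood out at 1 week therefore depends on the sign given to the dye-reversed array. At 6 weeks 4 had such a p, Acta2, Tubb4a, Myl10 and Dynlt1b, where 4.03% of named genes did. For the mean of both times 8 did, where 7.44% of named genes did. For the difference between times 4 did, where 3.38% of named genes did.

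On the 3 one-week arrays 11 members were positive throughout and 21 negative throughout, where 15.4% and 15.2% of named genes were. On the 3 six-week arrays the counts were 6 and 15, where 11.7% and 12.5% of named genes were. No member was positive on all 6 arrays, where 3.24% of named genes were. The 5 that were negative on all 6 were Dynlt1b, Dynlrb1, Myl6, Myl12b and Kif22, where 3.43% of named genes were. Dynll1 was the 1 member with a 1-week mean over 1 in size, a size that 1.53% of named genes had. Turned, Dynll1 was not over 1, and Myh13 and Myh14 were, at 1.04 and 1.03, where 1.16% of named genes were. Of the 53 members with agreeing spots, 3 were called for the mean of both times, Acta2, Dynll1 and Dynlt1b, where 1.83% were called among the 5625 genes. The turned mean of Dynll1 over both times was -0.14. Its 1-week and 6-week means were -2.01 and 0.09, so its call for the mean of both times rests on 1 week. The adjusted p of Dynll1 for that mean was 0.0243, and it was 0.102 without 1-week replicate 3 and 0.218 without the array with 6-week control.

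**Figure D5:**
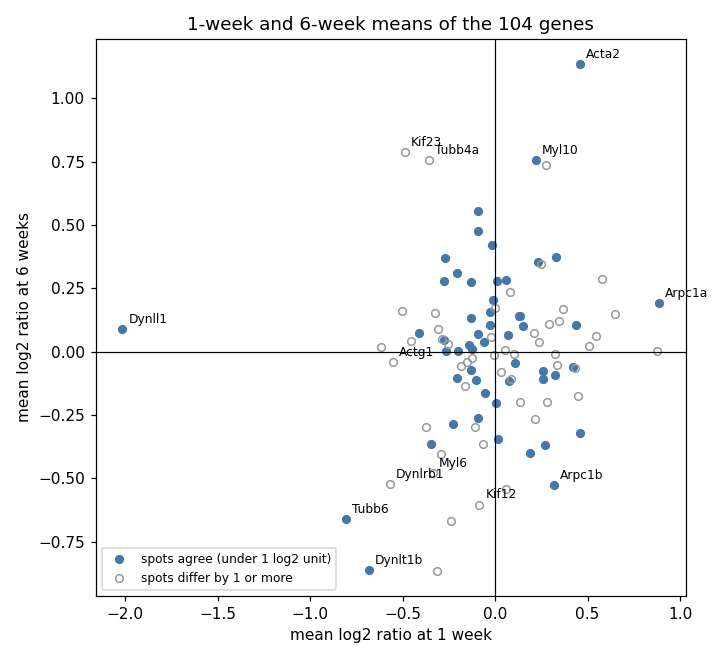
Mean log2 ratio at 1 week (horizontal axis) against that at 6 weeks (vertical axis) for the 104 genes, 1 point per gene. Filled points are genes whose spots agree within 1 log2 unit, open points those whose spots differ by 1 or more. Dynll1 stands apart at -2.01 and 0.09, Acta2 at 0.46 and 1.14, and most genes lie near the centre.

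Proteins that control these filaments were also read, from lists chosen for their known roles. Of 108 measured regulators of actin, myosin, tubulin and motors, 11 had an unadjusted limma p under 0.05 at 1 week, 6 positive and 5 negative, and 5 at 6 weeks, where 7.49% and 4.03% of named genes did. None passed over all tests. Gsn, gelsolin, which severs and caps actin filaments, read -1.41, -0.40 and -1.31 at 1 week and -0.21, -0.33 and -0.49 at 6 weeks. In the fit on genes with agreeing spots it fell at 1 week, with a mean of -1.04, or -0.10 turned, and an adjusted p of 0.0489. That p ranged to 0.974 over the alternatives and, with 1 array left out at a time, stayed under 0.05 only without 1-week replicate 2. Dstn, destrin, which also disassembles filaments, was positive on all 6 arrays, between 0.43 and 0.99, with a mean over both times of 0.67, or 0.36 turned, and an adjusted p of 0.0413 there. That p ranged from 0.0296 to 0.758 and, with 1 array left out at a time, stayed under 0.05 only without 1-week replicate 1. These 2 filament-severing proteins had opposite signs.

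The bundling protein Pls3 was 0.65, 1.12 and 1.54 at 1 week and 0.17, 0.26 and 1.31 at 6 weeks, with a turned 1-week mean of 0.67. The cross-linker Flna was -0.54, -0.21 and -0.70 at 1 week and 0.81, 0.34 and 1.01 at 6 weeks, with an unadjusted limma p of 0.00587 for the difference (adjusted p = 0.951), which was 0.75 turned. Its signs are opposite at the 2 times on every array. Tbca, a chaperone that folds beta tubulin, was -1.50, -0.41 and -1.002 at 1 week and between -0.12 and -0.07 at 6 weeks, with a turned 1-week mean of 0.03. The 16 measured motor adaptors had a 1-week median of -0.05, with 8 positive and 8 negative. The 2 with an unadjusted limma p under 0.05 were both positive. Pafah1b1, known as Lis1, a regulator of dynein, was 0.56, 1.09 and 1.58 at 1 week (limma adjusted p = 0.537), with a turned mean of 0.71. Dctn1, the large subunit of dynactin, was 0.24, 0.67 and 0.57 (limma adjusted p = 0.735), with a turned mean of 0.33. Dctn2, another dynactin subunit, was negative on the same arrays, at -0.32, -0.03 and -0.11. Of 8 listed partners of LC8 outside the motor, 4 were measured, and none had an unadjusted p under 0.05.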

How the data were processed

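The authors deposited a table of 32448 features by 6 arrays. The deposited values are log2 ratios by their form: as folds they are whole hundredths, within 0.02 of a hundredth, with 5 arrays at 100% and 1-week replicate 2 at 99.99%, and column medians are 3e-07. The scanner, background correction, normalization, dye of each channel, log base, centring and direction are not given in the sources used here. Without intensities, dim spots could not be set apart.

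A probe table named 24344 features by 1 symbol, 98 by several and 8006 not at all; 24076 matched RefSeq (GRCm38.p6) and 0 symbols changed. Spots were averaged per gene (11138 genes), and other features were tested alone. Arrays were centred on their medians with deposited signs kept, because channel 1 holds smoke on all 6. The 2 dye-swapped 6-week arrays were averaged, giving 5 replicates. The 1-week replicate 1, which also carries a dye-reversal label, was kept as a replicate of its own. The replicates were fitted with limma 3.58.1 in R 4.3.3 (lmFit, eBayes, two-sided, Benjamini-Hochberg over 19242 tests, threshold 0.05). Both times shared 1 spread per gene. The code was tested on simulated data.

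Members and lists were chosen with earlier results of these data known. Named are the members given by a fixed set of central genes, by up to 8 of each sign per contrast with the smallest p, and by signs shared over arrays, with others by range. Of 25 alternatives, 8 were chosen after seeing the data. The fit on genes whose spots agree was an alternative, not the main test. The alternatives changed signs, arrays, centring, scale, spots and variance.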

Additional observations from a re-analysis of the deposited data

Results flagged for a closer look

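4 members had an unadjusted limma p under 0.05 for the 6-week minus 1-week difference, which is the reason they are given here, and none passed adjustment (adjusted p = 0.951 for each). The difference was 2.10 for Dynll1, 1.27 for Kif23, 1.11 for Tubb4a and -0.85 for Arpc1b. Groups of arrays were too small for a check of single outlying arrays. Spots of Kif23 and Tubb4a lay up to 3.94 and 3.09 apart, those of Dynll1 and Arpc1b up to 0.25 and 0.65.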

How the results depend on the processing

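Over all 19242 tests no gene was called in any of the 4 contrasts; without variance moderation 5 were called at 6 weeks, 3 for the mean of both times and 5 for the difference, and with 6 arrays as separate replicates 6 for the mean. Genes with agreeing spots gave 102, 12 and 103 calls (1 week, 6 weeks, mean), with fewer genes tested, and 78 and 1 (1 week, difference) with the 6-week dye reversal turned. Leaving out each array in turn there gave 1 to 84, 0 to 21, 0 to 138 and 0 to 1, the lowest 1-week count without 1-week replicate 3, and over all tests 0 throughout. Members called there were 2 at 1 week (2 with that reversal turned, 0 to 2 leaving arrays out) and 3 for the mean (0 to 3). Members with unadjusted p under 0.05 numbered 1 at 6 weeks with the 6-week dye reversal turned, 2 with both turned (also on agreeing spots), 2 on the 4 arrays without dye reversal, 8 with separate replicates and 10 with a dye term, and for the difference 2 with the 6-week or both reversals turned. Leaving out arrays gave 3 to 9 at 1 week (3 without replicate 3; 4 to 11 on agreeing spots), 3 to 8 at 6 weeks, 6 to 10 for the mean (to 12 on agreeing spots) and 2 to 7 for the difference (to 12). Member medians moved to 0.022 at 1 week (agreeing spots, both reversals turned), -0.027 at 6 weeks (4 arrays), and 0.10, 0.11 and 0.085 for the difference (agreeing spots as deposited, with the 6-week and with both reversals turned). Leaving arrays out gave -0.045 to 0.0030, -0.027 to 0.049, -0.022 to 0.031 and -0.023 to 0.13 (1 week, 6 weeks, mean, difference). Actg1 at 1 week reversed to 0.010 with both dye reversals turned. The cause of these shifts was not tested. Single-gene results were each read in every alternative that held the gene. Of these other readings, 526 kept their side of the threshold and 26 newly passed it, on agreeing spots. None of these results passed in the main fit, so keeping the side means only staying not called. The 1-week mean of Dynll1 kept its side even where it moved from -2.01 to -0.34. No paired analysis was possible because the labels give no replicate numbers. Background correction, a filter on dim probes and a slide block could not be run on ratios.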
